A study of Homo sapiens with 4 samples.

Results

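The genes examined here are those of the DNA replication machinery. They were taken as every entry of the deposited expression table whose KEGG pathway annotation contains DNA replication, which gave 36 of the 64873 entries in the table. The choice used this annotation and no measured value, though it was made with earlier results of these data known. The libraries were made from K562, an established erythroleukemia cell line, that overexpressed U2AF1 carrying the S34F change, a mutant form of a splicing factor that recognizes the 3′ splice site. The cells received either the vehicle DMSO (2 libraries) or SF1-8, a small molecule studied as a binder of the U2AF homology motif of U2AF1, at 30 uM for 48 h (2 libraries), and the comparison asks what SF1-8 did to the transcriptome of these mutant cells. All 4 libraries carry the same overexpressed mutant and the labels do not say whether the 2 libraries of a group came from separate cultures, so a p-value here measures only the spread between these libraries. The medium was the same for all of them.

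DNA replication starts when the MCM2-7 ring is loaded at origins and becomes the motor of the replicative helicase. Polymerase alpha with its primase lays down RNA-DNA primers. The clamp loader RFC then places the sliding clamp PCNA, which holds polymerase delta on the lagging strand, while polymerase epsilon copies the leading strand. RPA coats the exposed single-stranded DNA. The RNA of the primers and misinserted ribonucleotides are removed by RNase H enzymes, the flap nucleases FEN1 and DNA2 trim the ends, and LIG1 seals the nicks. Many of these genes are transcribed from late G1 into S phase under E2F transcription factors, and cycling leukemia cells express them together.

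That shared control can be looked for in the promoters. RefSeq promoters of GRCh38.p14, running from 250 bases before the start site to 50 bases after it, were present for 29 of the 36 genes. In 11 of these 29 genes (37.9%) a promoter held an exact match, on either strand, to one of the E2F motifs TTTGGCGC or TTTCCCGC, against 750 of 27305 genes (2.75%) in the whole promoter table and 2.27% of its 35116 promoters. The 12 matches are printed below with 12 flanking bases on each side because, of the 4 motifs searched, this was the one whose share differed most from that of all genes. Each line gives the gene, the position in GRCh38.p14, the strand of the gene and the distance in bases from the start site to the first base of the match. Each sequence is written 5′ to 3′ on the gene's strand, and the capitals mark the motif, which reads GCGCCAAA or GCGGGAAA where it lies on the opposite strand.

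LIG1, chr19:48170439-48170470, minus strand, -114: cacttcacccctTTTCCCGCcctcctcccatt
MCM3, chr6:52284897-52284928, minus strand, -174: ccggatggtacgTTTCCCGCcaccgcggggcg
MCM6, chr2:135876514-135876545, minus strand, -90: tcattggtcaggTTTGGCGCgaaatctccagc
MCM6, chr2:135876576-135876607, minus strand, -152: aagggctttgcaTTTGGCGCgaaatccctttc
MCM7, chr7:100101565-100101596, minus strand, -187: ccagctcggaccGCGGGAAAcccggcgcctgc
PCNA, chr20:5126662-5126693, minus strand, -59: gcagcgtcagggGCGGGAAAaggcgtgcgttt
POLA1, chrX:24693769-24693800, plus strand, -137: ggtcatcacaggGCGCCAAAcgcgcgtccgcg
POLE, chr12:132687341-132687372, minus strand, -18: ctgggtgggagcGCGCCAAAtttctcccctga
POLE2, chr14:49688200-49688231, minus strand, -5: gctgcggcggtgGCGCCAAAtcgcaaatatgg
POLE4, chr2:74958600-74958631, plus strand, -31: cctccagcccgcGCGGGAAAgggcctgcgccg
RFC3, chr13:33818082-33818113, plus strand, -55: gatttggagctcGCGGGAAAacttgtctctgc
SSBP1, chr7:141738258-141738289, plus strand, -51: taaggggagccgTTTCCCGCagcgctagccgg

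The first bases of the matches lay between positions -187 and -5 relative to the start site. The POLE2 match, which began at -5, ran past the start site. MCM6, a subunit of the helicase ring, carried 2 of them. They were found in genes of the helicase (MCM3, MCM6 and MCM7), of polymerases alpha (POLA1) and epsilon (POLE, POLE2 and POLE4), of the clamp loader (RFC3), in the clamp PCNA, the ligase LIG1 and in SSBP1, which binds single-stranded DNA in mitochondria. In LIG1 and PCNA the match overlapped a GC box. The CCAAT box (CCAAT, bound by NF-Y) matched in 15 of the 29 genes (51.7%) against 39.7% of all genes, and the GC box (GGGCGG, bound by SP1) in 21 (72.4%) against 48.3%. The CHR element (TTTGAA), known from promoters of G2 and M phase genes, matched in 1 of the 29, POLE3 (3.45%), against 18.2% of all genes. A match is a description of these letters in this window and does not show that a factor binds there.

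**Figure D1:**
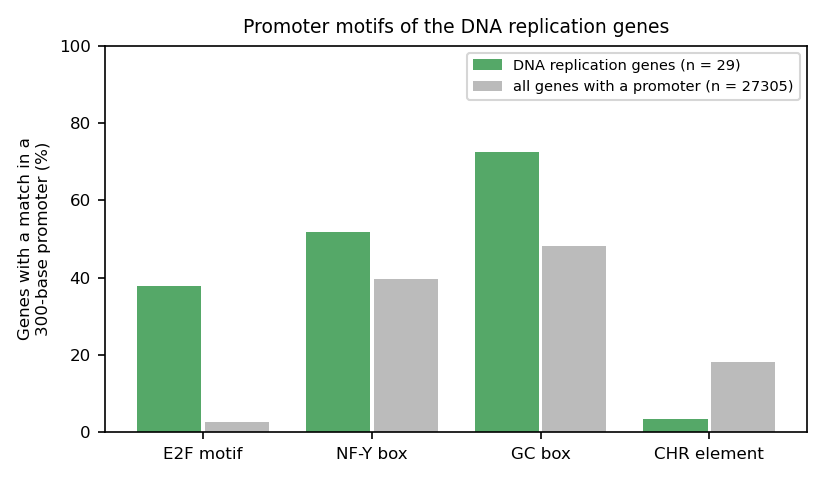
Share of genes (vertical axis, percent) with an exact match to each motif in a promoter of 300 bases, for the 29 DNA replication genes with a promoter (green) and for all 27305 genes of the promoter table (grey). The E2F bar of the replication genes stands at 37.9% against 2.75%, and the CHR bar at 3.45% against 18.2%.

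Most entries of these genes were abundantly expressed. Of the 36 entries, 35 passed the filter on low counts, with 484 to 35675 fragments per library, and their median level was 6.71 log2 CPM (the count scaled to library size), against 1.19 over all 26167 entries tested. The exception was RPA4, an RPA2-like gene known from non-proliferating tissues, which was listed at 0 in all 4 libraries with a count of 0. The entries' FPKM values (fragments scaled by entry length and library size, the authors' unit) ran from a mean of 1.20 for RNASEH2B to 96.6 for PCNA. This order depends on entry length. In CPM the lowest tested entry was that of POLD4, at 10.2 and 7.81 with DMSO and 7.49 and 8.69 with SF1-8. The summed FPKM of all entries was 761.7 and 763.8 in the DMSO libraries and 761.9 and 775.7 in the SF1-8 libraries.

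An entry is not always 1 gene. The table was assembled from the reads, and 11 of the 36 entries carry the name of at least 1 neighbouring gene as well. For 9 entries the length implied by count and FPKM was over 3 times the longest annotated coding transcript of the gene. The median ratio was 2.09 over the entries. These ratios are not a measure of merging. In entries of 1 gene the implied length could also exceed all annotated exons together, as for POLD2 (4641 against 3695 bases). The RNASEH2B entry names that gene alone, and its implied length was 33060 bases. The longest coding transcript of RNASEH2B has 4885 bases, but all its annotated exons together have 26291. The FEN1 entry, which also names FADS2, had an implied length of 17507 bases. The longest coding transcript of FEN1 has 2296 bases, and its annotated exons together have 2478. Levels of different genes in FPKM are therefore given as levels of these entries.

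**Figure D2:**
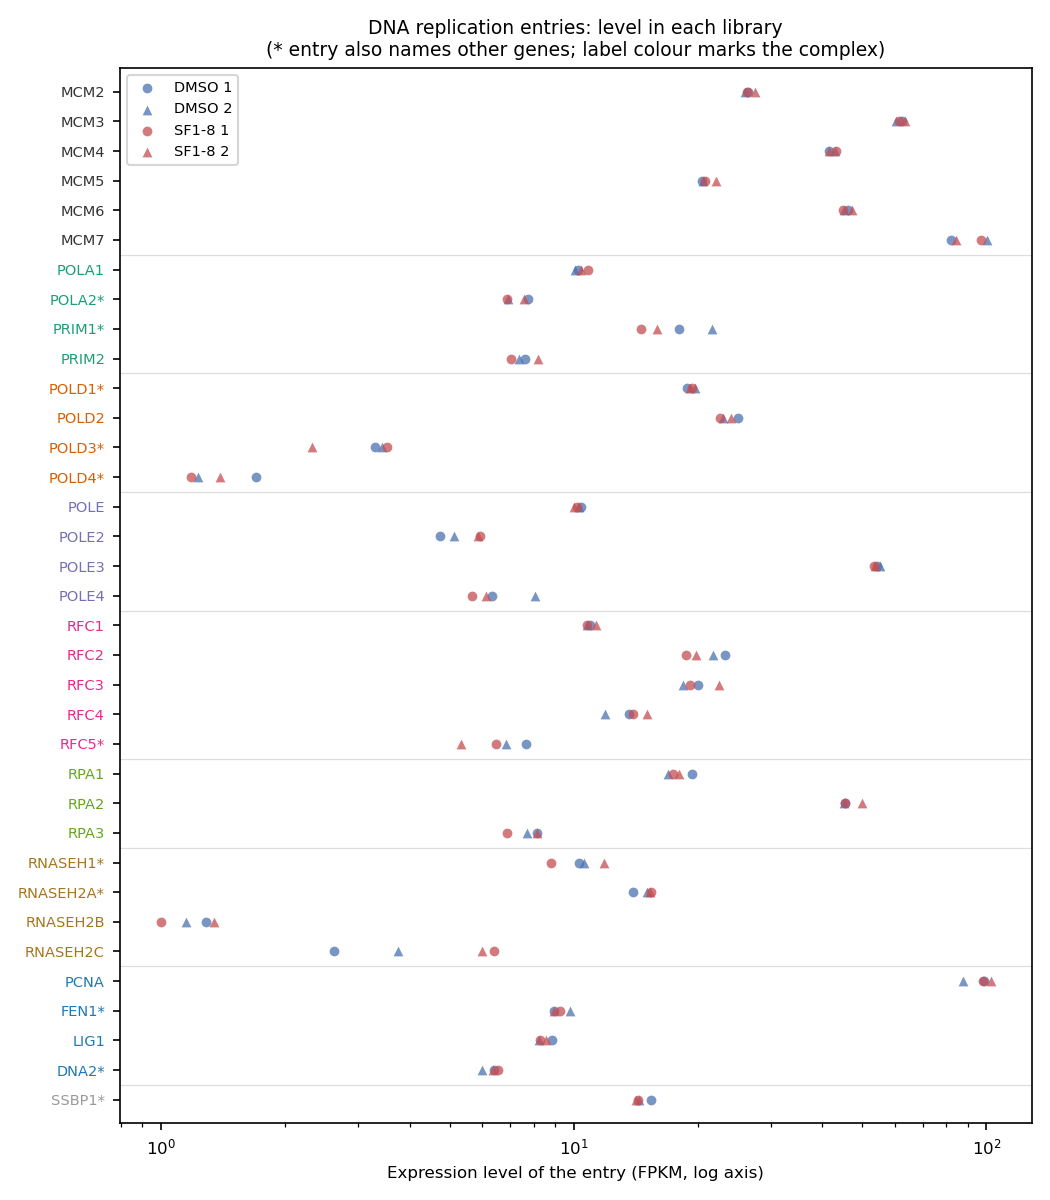
Level of each of the 35 tested entries (rows, grouped by complex) in FPKM on a log axis, with DMSO libraries in blue and SF1-8 libraries in red (circles, replicate 1; triangles, replicate 2). The 4 points of most rows lie on top of each other, from about 1.20 for RNASEH2B to 96.6 for PCNA, and RNASEH2C is the row in which red and blue stand furthest apart.

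The fitted changes of the replication genes with SF1-8 were small, between -0.36 and 0.28 on the log2 scale for all but RNASEH2C. None of the 35 entries passed an adjusted p of 0.05 by the quasi-likelihood test of edgeR, adjusted by Benjamini-Hochberg over all 26167 entries, of which 11 (0.042%) passed, and the lowest adjusted p among them was 0.882, for RNASEH2C. At an unadjusted p under 0.05 there were 2 entries, RNASEH2C above and the merged entry of PRIM1 below its DMSO level, against 1132 (4.33%) over all entries, of which 467 were higher (1.78%) and 665 lower (2.54%). In bulk libraries, a difference in the number of cells that express a gene and one in its RNA per cell cannot be told apart. By DESeq2, 1 entry passed an adjusted p of 0.05, RNASEH2C with an adjusted p of 0.00965, against 164 of 25152 (0.652%). The fitted change was above 0 for 21 entries and below 0 for 14 (48.4% of all entries tested were above 0), with a median log2 fold change of 0.01 against -0.01 over all entries.

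Each interval bounds the change of its own entry, given only the spread between these libraries. The 95% interval of the fold change stayed within 1.5-fold in either direction for 28 of the 35 entries and within 2-fold for 34, against 30.7% and 45.9% of all entries tested. Leaving RNASEH2C aside, the outermost bounds of the 34 other intervals were 0.604-fold and 1.52-fold. The median size of the change was 0.06 on the log2 scale, beside a median difference of 0.08 between the DMSO libraries and 0.07 between the SF1-8 libraries over the same entries. Over all entries tested these values were 0.22, 0.31 and 0.27. Neither comparison with all entries was matched for level. The median level was 6.71 log2 CPM for the replication entries and 1.19 over all entries, and its part in these differences was not tested. For 21 of the 35 entries the standard error was larger than the change itself.

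How many entries were separated between the groups depended on the scale. In CPM with TMM scaling, 12 entries (34.3%) had each SF1-8 library above each DMSO library and 4 (11.4%) had each below, against 17.3% and 18.1% of all entries tested. In FPKM 7 of the 35 (20%) were above and 7 (20%) below, against 14.2% and 20.01% of all entries tested.

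**Figure D3:**
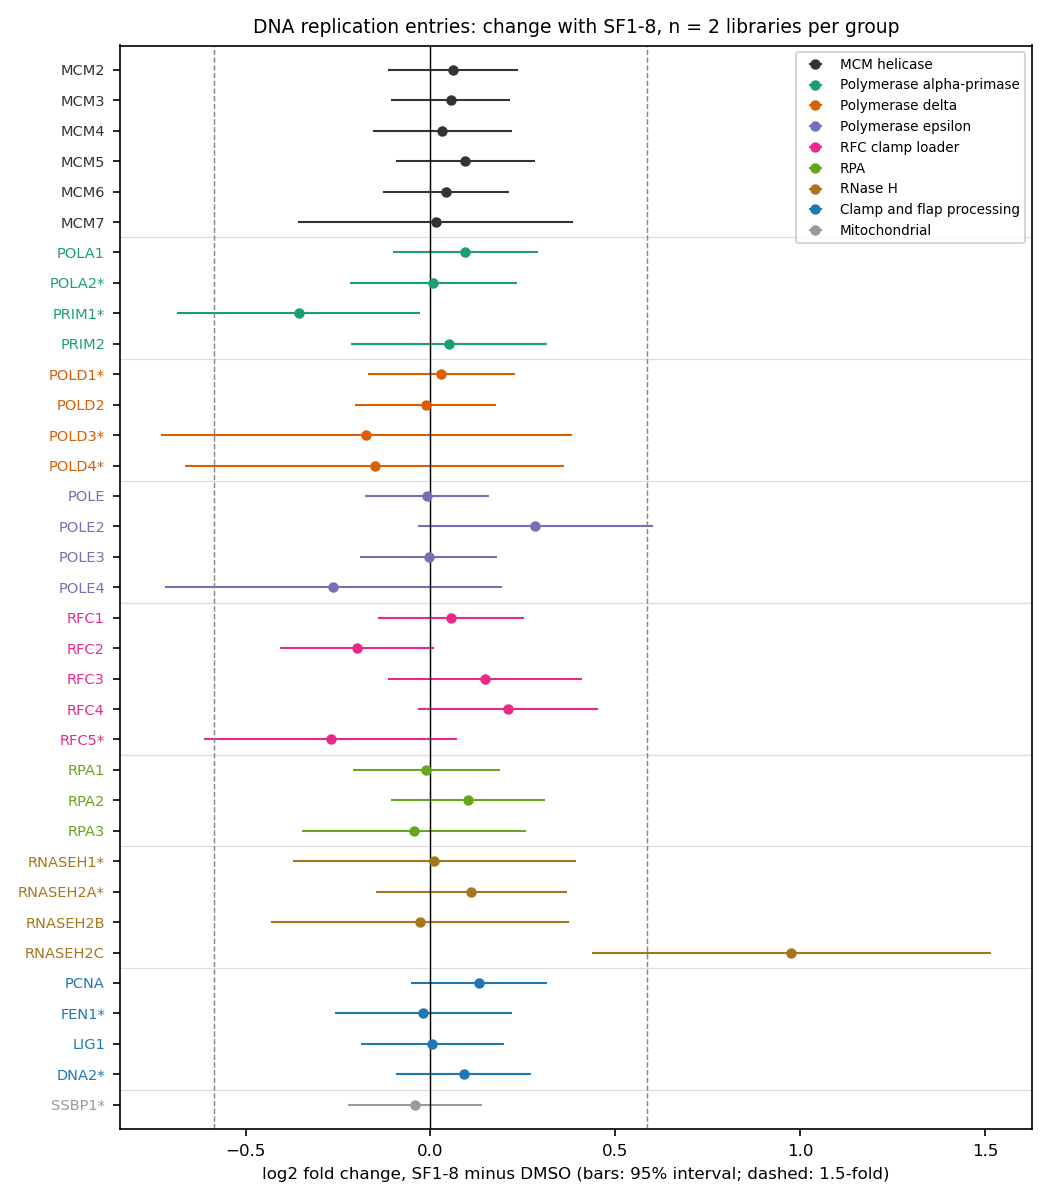
Log2 fold change of each entry, SF1-8 minus DMSO (horizontal axis), with its 95% interval from edgeR, by complex (colours; rows as named, with an asterisk for entries that also name other genes). Dashed lines mark 1.5-fold, within which 28 of the 35 intervals stay, and the interval of RNASEH2C, from 0.44 to 1.51, lies to the right of 0.

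The MCM helicase had small changes, and all 6 intervals stayed within 1.5-fold. MCM2 was at 26.5 and 26.1 FPKM in the DMSO libraries and at 26.3 and 27.5 in the SF1-8 libraries. MCM3 was at 62.3 and 60.3 against 61.4 and 63.6, and MCM4 at 41.6 and 42.9 against 43.3 and 41.6. These subunits, with MCM5 and MCM6, form the ring together with MCM7. MCM5 was at 20.5 and 20.5 against 20.8 and 22.2, and MCM6 at 46.1 and 45.1 against 44.9 and 47.2. In CPM, MCM2, MCM3 and MCM5 had both SF1-8 libraries above both controls, while in FPKM MCM5 alone did and the groups of the other subunits overlapped.

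MCM7 was the highest subunit and the least stable between replicates, at 82.1 and 100.5 FPKM with DMSO and 97.2 and 84.2 with SF1-8. Its 2 DMSO libraries were further apart than the groups. The MCM7 entry also spans an overlap with AP4M1 on the opposite strand. The fitted changes of the 6 subunits ran from 0.01 for MCM7 to 0.09 for MCM5 on the log2 scale, with a median of 0.05, and the one of MCM7 turned negative under upper-quartile scaling and in FPKM. Without MCM7, the intervals of the other 5 subunits reached from 0.897-fold to 1.22-fold, and no adjusted p of the complex in edgeR was below 0.970. Although the proteins form a ring with 1 copy of each, the FPKM levels of the entries differed by 4.34 times between MCM5 and MCM7. That ratio depends on the entry lengths, implied as 9123 bases for MCM5 and 5504 for MCM7. In CPM, which is not scaled by length, MCM5 was at 180.7 and 191.6 with DMSO and 193.2 and 204.1 with SF1-8. MCM7 was at 437.5 and 566.1 against 544.9 and 468.1 CPM. MCM7 held 29.4% and 34.02% of the summed MCM FPKM with DMSO and 33.1% and 29.4% with SF1-8, and MCM5 held 6.95% to 7.74% across all 4 libraries.

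In polymerase alpha-primase, which makes the primers, 3 of the 4 entries had a change above 0 and 1 below. The catalytic subunit POLA1 was at 10.2 and 10.1 FPKM with DMSO and at 10.8 and 10.4 with SF1-8, a change of 0.09 ± 0.08 (log2, standard error). POLA2, the regulatory subunit, shares its entry with AP000944 and CDC42EP2 and was at 7.74 and 6.95 against 6.90 and 7.58. PRIM2, the large primase subunit, was at 7.61 and 7.39 against 7.05 and 8.19.

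PRIM1, the catalytic primase subunit, was counted in 1 entry with NACA, a widely and highly expressed chaperone of nascent polypeptides, and with AC117378. The entry was at 18.0 and 21.6 FPKM with DMSO and at 14.5 and 15.9 with SF1-8, so both treated libraries were below both controls. The log2 fold change was -0.36 ± 0.13 (standard error; 95% interval -0.68 to -0.03; 0.781-fold), with an unadjusted p of 0.038 and an adjusted p of 0.970 in edgeR. The value did not stay below an unadjusted p of 0.05 without DMSO 2 (log2 fold change -0.17, unadjusted p of 0.119 in edgeR) or without SF1-8 1 (-0.30, unadjusted p of 0.123). The implied length of the entry, 15980 bases, was 11.5 times the longest coding transcript of PRIM1, and how much of the count belongs to PRIM1 cannot be read from it.

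The promoters of the 3 genes with the lowest unadjusted p, RNASEH2C, PRIM1 and RFC2, are printed below so that the sequence stands beside the values. Each runs from 250 bases before the start site up to it, 5′ to 3′ on the gene's strand, from RefSeq on GRCh38.p14, and the capitals mark the matches found. None of them holds an E2F match. PRIM1 has a CCAAT box at 18 bases and RFC2 has GC boxes at 49 and 22 bases before the start site.

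RNASEH2C, chr11:65720799-65721048, minus strand: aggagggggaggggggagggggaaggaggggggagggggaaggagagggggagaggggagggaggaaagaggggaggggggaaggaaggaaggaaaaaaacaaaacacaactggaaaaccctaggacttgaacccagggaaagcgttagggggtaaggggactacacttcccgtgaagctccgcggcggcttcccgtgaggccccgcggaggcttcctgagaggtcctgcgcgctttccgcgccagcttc
PRIM1, chr12:56752324-56752573, minus strand: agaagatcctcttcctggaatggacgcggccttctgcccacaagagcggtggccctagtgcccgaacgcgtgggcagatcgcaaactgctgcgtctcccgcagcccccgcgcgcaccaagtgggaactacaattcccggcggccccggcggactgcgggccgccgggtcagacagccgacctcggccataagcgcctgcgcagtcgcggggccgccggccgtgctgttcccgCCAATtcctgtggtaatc
RFC2, chr7:74254400-74254649, minus strand: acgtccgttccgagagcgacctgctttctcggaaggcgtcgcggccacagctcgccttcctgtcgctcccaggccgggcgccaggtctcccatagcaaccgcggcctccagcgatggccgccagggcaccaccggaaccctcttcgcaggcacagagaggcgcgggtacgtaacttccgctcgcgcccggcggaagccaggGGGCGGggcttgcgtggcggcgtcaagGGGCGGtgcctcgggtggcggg

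The promoter of RNASEH2C held no match to any of the 4 motifs. It is GC-rich at 63.6%, below PRIM1 (68.4%) and RFC2 (72.4%). Over the genes with a promoter, the median change of the 11 with an E2F match was 0.04 on the log2 scale (-0.26 to 0.28), with 8 of them above 0. For the 18 without a match it was 0.00146 (-0.36 to 0.97), with 9 above 0.

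In polymerase delta, the lagging strand polymerase, 1 entry had a change above 0 and 3 below, and none separated the groups. The catalytic subunit POLD1, in 1 entry with AC020909 and SPIB, was at 18.8 and 19.7 FPKM with DMSO and at 19.4 and 19.1 with SF1-8. POLD2 was at 25.0 and 23.0 against 22.7 and 24.0. The accessory subunits POLD3 and POLD4 were at lower levels. POLD3, in 1 entry with AP001372, was at 3.29 and 3.44 against 3.53 and 2.32, where the low value of SF1-8 2 alone set the sign: the log2 fold change was -0.17 with all libraries and 0.11 without SF1-8 2. POLD4, which shares its entry with AP003419 and CLCF1, was at 1.70 and 1.23 against 1.18 and 1.39.

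Polymerase epsilon, the leading strand enzyme, had a change above 0 for POLE2 and below 0 for the other 3 subunits. The catalytic subunit POLE was at 10.4 and 10.3 FPKM with DMSO and at 10.2 and 10.0 with SF1-8. POLE3, a histone-fold subunit shared with chromatin remodelling complexes, was the highest at 54.3 and 55.2 against 53.4 and 53.8. Its partner POLE4 was at 6.33 and 8.04 against 5.68 and 6.13, with a log2 fold change of -0.26 (95% interval -0.72 to 0.19). Its DMSO libraries differed from each other by 0.42.

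POLE2, the subunit that links POLE to the helicase, was at 4.73 and 5.12 FPKM with DMSO and at 5.94 and 5.86 with SF1-8. Both treated libraries were above both controls. The log2 fold change was 0.28 ± 0.12 (standard error; 1.22-fold), with an unadjusted p of 0.0712 and an adjusted p of 0.970 in edgeR. A separate entry that names POLE2 without the pathway held 564 and 689 counts with DMSO and 797 and 714 with SF1-8, and is not in these values. Those counts are not scaled to library size, and no change can be read from them. DMSO 1 held 45522905 counts in all, against 64387710 in DMSO 2 and 67554610 and 64305922 in the SF1-8 libraries.

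In the RFC clamp loader, 3 subunits had a change above 0 and 2 below. In CPM 4 of the 5 separated the groups, RFC3 and RFC4 upward and RFC2 and RFC5 downward. Of all entries tested, 17.3% separated upward and 18.1% downward in CPM. For RFC3 the lower SF1-8 library was at 70.0 CPM and the higher DMSO library at 69.3. In FPKM the groups of RFC3 overlapped. RFC1, the large subunit that makes the replicative form of the loader, was at 10.9 and 10.8 FPKM with DMSO and 10.8 and 11.3 with SF1-8. RFC2 was at 23.2 and 21.8 against 18.7 and 19.7, and RFC5, in 1 entry with AC131159, at 7.67 and 6.87 against 6.49 and 5.32. Both were lower in both treated libraries. RFC3 was at 19.96 and 18.4 against 19.2 and 22.5, and RFC4 at 13.6 and 11.9 against 13.9 and 15.0.

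None of these differences passed the test. For RFC2 the change was -0.20 ± 0.08 (log2, standard error; 0.871-fold, 95% interval 0.754 to 1.01), with an unadjusted p of 0.0579 in edgeR. The change was -0.27 ± 0.13 for RFC5, 0.21 ± 0.10 for RFC4 and 0.15 ± 0.10 for RFC3, with unadjusted p of 0.0995, 0.0786 and 0.211, and the adjusted p of all 5 subunits in edgeR was 0.970. RFC2 passed an unadjusted p of 0.05 under upper-quartile scaling (unadjusted p of 0.048) and in the 3 fits on FPKM. RFC2, RFC4 and RFC5 each overlap a coding gene on the opposite strand (LAT2, EIF4A2 and WSB2), and whether the counting used strand is not given in the sources used here.

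RPA, the single-strand binding complex, had 3 tested subunits whose groups overlapped or nearly met in FPKM. RPA1, the large subunit, was at 19.4 and 17.0 FPKM with DMSO and at 17.4 and 18.0 with SF1-8. RPA2 was at 45.3 and 45.2 against 45.5 and 49.8, with a log2 fold change of 0.10 (95% interval -0.11 to 0.31). RPA3 was at 8.13 and 7.70 against 6.90 and 8.17. With RPA4 at a count of 0, a limit of 3 counts per library applies to it, which covers counting error only.

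The RNase H genes held the largest change of the set. RNase H2 is a trimer of a catalytic subunit, RNASEH2A, with RNASEH2B and RNASEH2C, and it removes single ribonucleotides from DNA, while RNASEH1 is a separate enzyme that cuts longer RNA-DNA hybrids. RNASEH2C, at chr11:65714005-65720818 on the minus strand of hg38, was at 2.62 and 3.75 FPKM with DMSO and at 6.39 and 5.99 with SF1-8. The counts behind these values were 757 and 1512 with DMSO and 2662 and 2410 with SF1-8. Both treated libraries were above both controls, and DMSO 1, the shallowest library, held the lowest value.

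The mean level of RNASEH2C was 3.18 ± 0.796 FPKM with DMSO and 6.19 ± 0.282 with SF1-8 (SD, n = 2 each). The log2 fold change was 0.97 ± 0.21 (standard error), which is 1.97-fold with a 95% interval of 1.35 to 2.86, and exceeded the 0.59 that separated the 2 DMSO libraries. The unadjusted p in edgeR was 0.00539 and the adjusted p 0.882, so the change did not pass the test over all entries. The unadjusted p stayed below 0.05 in all 13 fits run, with log2 fold changes from 0.71 (without DMSO 1) to 1.31 (without DMSO 2).

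The implied length of the RNASEH2C entry was 6258 bases. All annotated exons of the gene together have 5101 bases and its longest coding transcript 2794. How much of the count belongs to coding transcripts cannot be read from it. The RNASEH2C entry overlaps KAT5, an acetyltransferase gene on the opposite strand. KAT5 had 1426 and 1829 counts with DMSO and 1735 and 2016 with SF1-8 (log2 fold change -0.02 ± 0.13). The summed FPKM of 7 fibroblast and stromal markers moved with the groups in the other direction, from 10.0 and 4.93 with DMSO to 2.47 and 0.681 with SF1-8. The part of this in the RNASEH2C value was not tested.

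The fitted changes of the other RNase H entries were between -0.03 and 0.11. RNASEH2A, in 1 entry with THSD8, was at 13.9 and 15.0 FPKM with DMSO and at 15.4 and 15.3 with SF1-8, a log2 fold change of 0.11 ± 0.10. RNASEH2B was at 1.29 and 1.15 against 1.00 and 1.34, with a change of -0.03 and an interval from -0.43 to 0.37. RNASEH1, in 1 entry with AC108488, was at 10.3 and 10.6 against 8.83 and 11.8, and its 2 SF1-8 libraries lay on either side of the controls. The difference between RNASEH2C and the other subunits was not tested.

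**Figure D4:**
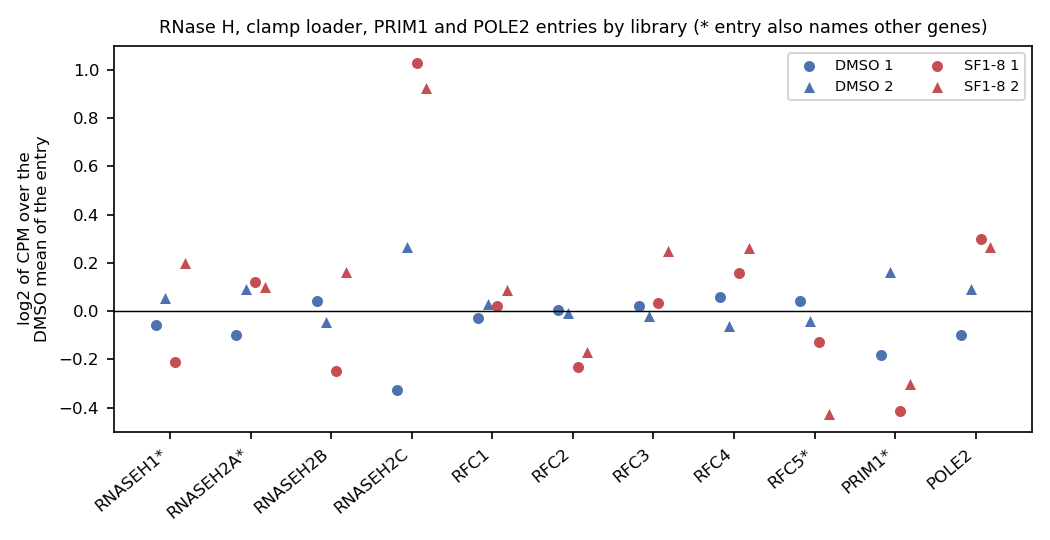
Level of selected entries in each library, as log2 of its CPM over the mean CPM of the DMSO libraries (vertical axis; 0 is that mean), with DMSO in blue and SF1-8 in red. RNASEH2C is the entry whose red points stand clear of all others, while RFC2, RFC5 and PRIM1 have both red points below and RFC4 and POLE2 both above the blue ones.

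The clamp and the enzymes that finish Okazaki fragments had changes between -0.02 and 0.13 on the log2 scale. PCNA was at 98.4 and 88.0 FPKM with DMSO and at 97.9 and 102.3 with SF1-8, a log2 fold change of 0.13 ± 0.07 (95% interval -0.05 to 0.32). FEN1, in 1 entry with FADS2, was at 8.97 and 9.81 against 9.26 and 8.95. LIG1 was at 8.85 and 8.24 against 8.27 and 8.55. DNA2, in 1 entry with SLC25A16, was at 6.39 and 6.01 against 6.56 and 6.39. All 4 intervals stayed within 1.5-fold. The mitochondrial SSBP1, in 1 entry with TAS2R6P, was at 15.4 and 14.4 against 14.3 and 14.1, a log2 fold change of -0.04 ± 0.07.

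Replication factors that the KEGG pathway leaves out were read from the same fit. Of 51 such genes, all tested, 37 had a change above 0 and 14 below, with a median of 0.04 on the log2 scale, where 48.4% of all entries tested were above 0. None passed an adjusted p of 0.05 in edgeR and 1 had an unadjusted p under 0.05, where 4.33% of all entries did. This was DBF4, the activator of the CDC7 kinase that fires origins, at 13.4 and 11.3 FPKM with DMSO and 14.2 and 14.9 with SF1-8 (log2 fold change 0.26 ± 0.09, unadjusted p = 0.0361, adjusted p = 0.970 in edgeR). That count was 0 without SF1-8 1 and 5 without DMSO 1, and 0 in the fits on FPKM.

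The licensing factors, which load the MCM ring, had 6 of 9 changes above 0. CDT1 was their highest entry, at 41.1 and 43.0 FPKM against 43.3 and 41.1, and ORC4 their lowest, at 4.47 and 4.18 against 4.24 and 4.64. Of the 13 firing and helicase factors 8 were above 0, from CDC45 (49.9 and 50.9 against 44.9 and 52.8), which joins MCM2-7 in the active helicase, down to MTBP (1.96 and 1.73 against 1.78 and 2.02). Of the 8 fork protection and cohesion clamp factors 7 were above 0, with TIMELESS highest (11.8 and 12.7 against 12.8 and 12.3) and TIPIN, its partner, lowest (4.79 and 5.23 against 5.53 and 5.06).

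Of the other lists, the 4 MCM relatives had 3 changes above 0, the 5 chromatin assembly factors 3 and the 6 genes of nucleotide supply 4. TK1, which salvages thymidine, was at 35.6 and 35.9 FPKM with DMSO and 35.0 and 33.6 with SF1-8, and RRM2B, a ribonucleotide reductase subunit, at 5.55 and 5.36 against 5.96 and 6.62. MCMBP, which binds MCM proteins, was at 11.8 and 8.95 against 12.0 and 11.2, while MCMDC2, known from germ cells, was near 0 at 0.210 and 0.191 against 0.243 and 0.152. ASF1B and CHAF1B, both histone chaperones or parts of one, were at 24.3 and 25.9 against 21.4 and 24.6, and at 7.66 and 7.69 against 8.08 and 8.45. All 6 proliferation genes had a fitted change above 0 without passing the test. Cyclin A2 (CCNA2) was their highest, at 70.9 and 69.8 against 68.7 and 73.3, and CCNE2 their lowest, at 2.36 and 2.60 against 2.31 and 2.75. The groups of CCNA2, CCNE2, TOP2A and E2F1 overlapped in FPKM, while MKI67 and CCNE1 were higher in both treated libraries. Of all entries tested, 14.2% were higher in both treated libraries in FPKM. CCNE1 was at 9.40 and 7.72 with DMSO and at 9.71 and 10.5 with SF1-8. E2F1 was at 3.97 and 4.23 with DMSO and at 7.95 and 3.80 with SF1-8. MKI67 was at 8.64 and 11.4 against 11.8 and 11.6.

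The libraries held 45522905 to 67554610 counts in all, DMSO 1 being the shallowest, and 10.9% to 14.0% of these lay on ribosomal RNA loci. The label K562 was met by the data. The 9 markers of the line, among them GATA1 and the fetal globins, fell in 8 entries, since HBG1 and HBG2 share 1. All 8 had a mean FPKM over 1, and they summed to 279 FPKM in each DMSO library and to 255 and 273 in the SF1-8 libraries. Of the 7 stromal markers 2 (COL1A1 and COL1A2) had a mean over 1, while DCN, LUM and PDGFRB were below 0.2 in every library. Of 6 lymphocyte markers only CD3D and of 5 monocyte and granulocyte markers only LYZ had a mean FPKM over 1, and MPO and ELANE were at 0. The lymphocyte markers summed to 5.15 and 5.83 FPKM with DMSO and 4.35 and 4.43 with SF1-8, the monocyte and granulocyte markers to 4.22 and 5.85 against 4.42 and 4.48. The part of these other markers in the values of the replication genes was not tested.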

How the data were processed

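RNA-seq libraries were made from total RNA after removal of ribosomal RNA. Per the labels, the authors used cutadapt, FastQC, Bowtie2, HISAT2 and StringTie on hg38. Versions and settings are not given in the sources used here. The deposited table gives for each assembled entry an estimated count and an FPKM value, and the authors wrote 0.0001 as FPKM where the count was 0, which was set to 0 here. The estimated counts were whole numbers and were used as deposited. Entries that name no gene (2095 of them, 0.358% to 0.421% of counts) were left out.

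Counts were tested with edgeR 4.0.16 (quasi-likelihood test, TMM scaling, filterByExpr, Benjamini-Hochberg adjustment over 26167 entries, two-sided) in R 4.3.3, with DESeq2 1.42.0 and limma 3.58.1 (log2 of FPKM plus 1 or 0.1) as alternatives. Standard errors were taken as the change over the square root of F, and 95% intervals from a t distribution. With 2 libraries per group an exact permutation test cannot go below p = 0.333, and none is reported. The edgeR fit was checked on simulated counts with 200 genes changed 4-fold, of which 85.5% were recovered. Changes as small as those of the replication entries were not simulated. Every entry of the pathway is named. Of the outside list, genes with an unadjusted p under 0.05, the highest and lowest of each sublist and all proliferation genes are named. Members and lists were chosen with earlier results of these data known. Promoters came from RefSeq (GRCh38.p14), gene lengths and opposite-strand genes from GENCODE v29. Of the entries, 13 overlap a coding gene on the opposite strand, and 11 further entries that name a member gene without the pathway (0.594% of member counts) were not added.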

Additional observations from a re-analysis of the deposited data

How the results depend on the processing

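With 2 libraries a group, each interval given bounds the change of its own entry from the spread between these libraries only. Over all entries, 11 passed an adjusted p of 0.05, against 164 by DESeq2, 31 with no filter on low counts, 0 with a replicate block, 1 by limma on log2(FPKM + 1), and 0 with a pseudocount of 0.1 or no filter on low values. Leaving out 1 library gave 0 (without DMSO 1) to 30 (without SF1-8 1), where the lone library of a group is assumed to vary like the other group. The replicate numbers pair nothing by the labels and the deviations correlated at 0.0165, so the block is no paired design. Among the replication entries the block changed no call.

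No replication entry passed an adjusted p of 0.05 in any setting except RNASEH2C by DESeq2 (1 entry, log2 fold change 0.977, adjusted p 0.00965), and leaving out 1 library gave 0 to 0. Unadjusted, 4 passed in the limma fits (POLE2, RFC2, RNASEH2C and PRIM1), 1 when entries of 1 gene alone were kept (a setting added after seeing the data), and 1 to 3 without 1 library, PRIM1 being lost without DMSO 2 and without SF1-8 1, while POLE4 passed without DMSO 1 and POLD3 and RFC5 without SF1-8 1. For the genes outside the pathway the limma fits gave 0, and leaving out 1 library gave 0 to 5. Of all entries tested, 4.33% had an unadjusted p under 0.05 in the main edgeR fit. That share is not given for the other settings, so their counts have no background beside them. The median over the replication entries was 0.0171 to 0.0749 without 1 library.

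By complex, leaving out 1 library gave medians of 0.0259 to 0.0977 (MCM), -0.0505 to 0.0681 (alpha-primase), -0.0622 to 0.00242 (delta), -0.0485 to 0.0404 (epsilon), 0.027 to 0.0916 (RFC), -0.0382 to 0.0692 (RPA), -0.0401 to 0.185 (RNase H), 0.0479 to 0.0923 (clamp and flap) and -0.0523 to -0.0214 (SSBP1). In the limma fits, with a pseudocount of 1 with and without a filter and of 0.1, alpha-primase was at 3.44e-05, 3.44e-05 and -0.000169 and SSBP1 at -0.0641, -0.0641 and -0.068, while clamp and flap was at 0.0169 with a pseudocount of 1. The cause was not tested.

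In all, 16 entries changed sign in some setting, the largest with a change of 0.17 in size, and 19 never did. With all libraries kept, 5 did. Under upper-quartile scaling MCM7 was at -0.00134, POLA2 at -0.00769, RNASEH1 at -0.004 and LIG1 at -0.0102. By limma with a pseudocount of 1, filtered or not, they were at -0.00607, -0.0175, -0.0261 and -0.0196, and with 0.1 at -0.0061, -0.0195, -0.0296 and -0.0216. RNASEH1 was at -0.00267 with the replicate block and POLE3 at 0.00258 with no filter on low counts. Leaving out 1 library, the changes that crossed 0 ranged over FEN1 -0.12 to 0.094, LIG1 -0.00844 to 0.0277, MCM4 -0.0291 to 0.1, MCM7 -0.161 to 0.217, POLA2 -0.0495 to 0.0716, POLD1 -0.0418 to 0.109, POLD2 -0.0441 to 0.0262, POLD3 -0.51 to 0.106, POLD4 -0.325 to 0.0509, POLE -0.0413 to 0.0279, POLE3 -0.0556 to 0.0528, PRIM2 -0.0516 to 0.152, RNASEH1 -0.204 to 0.205, RNASEH2B -0.244 to 0.166, RPA1 -0.0613 to 0.0467 and RPA3 -0.159 to 0.0692, and the cause was not tested.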
